A study of Mus musculus with 6 samples.

Results

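Bile acid synthesis and transport in mouse liver was followed through 10 genes, taken by symbol from the pathway. The choice was made with earlier results of these data known. They are *Cyp7a1*, *Cyp8b1*, *Cyp27a1* and *Cyp7b1* of synthesis, *Slc27a5* and *Baat* of conjugation, *Slc10a1* and *Abcb11* of transport, and the nuclear receptors *Nr1h4* and *Nr0b2*. All 10 have 1 row in the deposited table of 31950 genes. All 10 also lie among the 13243 genes tested, those whose FPKM averaged 0.5 or more across the livers.

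RNA of livers from 3 WT and 3 *β-cateninΔ(ex3)/+* mice was sequenced, with 1 library per liver. The sample labels give C57BL/6 as the strain and 8 weeks as the age of every mouse. *β-cateninΔ(ex3)/+* mice have 1 allele of *Ctnnb1*, the β-catenin gene, from which exon 3 is deleted; the protein then lacks the sites that mark it for breakdown. The study's methods describe exon 3 deletion in adult liver by a tamoxifen-inducible albumin-driven Cre and by an adenovirus carrying Cre, besides a constitutive *Alb-Cre* line. They do not say by which route the livers for RNA-seq were made, nor whether the WT mice received the same agent. The paper uses the name *β-cateninΔ(ex3)/+* for livers of its tamoxifen-induced mice, and its constitutive *Alb-Cre* mice died before 8 weeks of age. Values are FPKM, which relate the fragments of a gene to its length and to the sequenced total, so levels of different genes can be compared. They are not counts, and the number of fragments behind each value is not given. From steps between the low values, depth was roughly estimated as 24.6 to 24.9 M fragments in WT and 17.06 to 19.7 M in *β-cateninΔ(ex3)/+* libraries, with only 4.66% to 18.8% of the values on a step against 4% by chance.

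Bile acids are made from cholesterol in hepatocytes. The classical route begins with 7α-hydroxylation of cholesterol by CYP7A1, its rate-limiting enzyme, and CYP8B1 adds the 12α-hydroxyl group that makes cholic acid. The alternative route begins with CYP27A1, a mitochondrial sterol 27-hydroxylase, and runs through the oxysterol 7α-hydroxylase CYP7B1. Bile acids are activated by the CoA ligase encoded by *Slc27a5*, joined to taurine or glycine by BAAT, and exported into bile by the pump BSEP, encoded by *Abcb11*. Those returning with portal blood re-enter hepatocytes through NTCP, encoded by *Slc10a1*. The bile acid receptor FXR (*Nr1h4*) induces SHP (*Nr0b2*), a repressor of *Cyp7a1* and *Cyp8b1*, and induces *Abcb11*.

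Sequence upstream of the transcription start was at hand for 6 of the 10 genes, from RefSeq on the build GRCm38.p6. Shown are the 250 bases before the start for the 3 of these genes past both thresholds below: *Cyp27a1* (chr1:74713285-74713534, plus strand) and *Abcb11* (chr2:69342617-69342866, minus strand), both higher in *β-cateninΔ(ex3)/+* livers, and *Cyp8b1* (chr9:121916306-121916555, minus strand), which was lower. Each is written 5′ to 3′ along its gene, and capitals mark a match to one of the motifs searched.
Cyp27a1: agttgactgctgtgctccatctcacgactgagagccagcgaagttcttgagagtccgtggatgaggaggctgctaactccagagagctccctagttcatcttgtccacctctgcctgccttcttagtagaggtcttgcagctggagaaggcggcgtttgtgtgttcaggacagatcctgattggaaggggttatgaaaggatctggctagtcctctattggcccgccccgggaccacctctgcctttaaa
Cyp8b1: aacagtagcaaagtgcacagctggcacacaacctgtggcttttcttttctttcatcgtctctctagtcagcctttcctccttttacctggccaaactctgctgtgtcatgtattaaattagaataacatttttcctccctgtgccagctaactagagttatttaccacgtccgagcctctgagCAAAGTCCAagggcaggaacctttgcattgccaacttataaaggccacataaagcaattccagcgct
Abcb11: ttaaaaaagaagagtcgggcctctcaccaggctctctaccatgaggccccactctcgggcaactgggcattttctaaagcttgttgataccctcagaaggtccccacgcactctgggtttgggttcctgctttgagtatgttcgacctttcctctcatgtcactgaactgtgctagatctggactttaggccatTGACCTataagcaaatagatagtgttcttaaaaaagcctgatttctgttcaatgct

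The motifs searched on both strands were CAAGGTCA, bound by NR5A2, AGGTCA, the nuclear receptor half-site, which CAAGGTCA contains, CTTTGAT, a TCF/LEF core, and CAAAGTCCA, bound by HNF4A. An exact inverted repeat of the half-site with 1 base between, the FXR element, was searched as well. The capitals in *Cyp8b1* are CAAAGTCCA from -67 to -59 relative to the start, a word found in 0.384% of the 32851 mouse promoter windows of this length. The capitals in *Abcb11* are TGACCT from -56 to -51, the half-site on the other strand, which 14.0% of windows hold. The letters just before it are aggccat, where the exact inverted repeat needs AGGTCA and any 1 base. The *Cyp27a1* window holds none of these letters. Its RefSeq start lies before the start of the gene in the deposited table, 74713574. Of short words taken after that start, 0 were found in a transcript of the gene, against 32 for each other window. Of the others, *Nr1h4* has a half-site from -214 to -209 and *Slc10a1* has one from -87 to -82 of one of its 2 starts, and *Nr0b2* has none. CAAGGTCA (1.33% of windows), CTTTGAT (3.21%) and the exact inverted repeat (0.00609%) were found in none of the 6 genes, and repeats with a mismatch were not searched. These are matches of letters, and binding was not measured here. *Cyp7a1*, *Cyp7b1*, *Baat* and *Slc27a5* had no entry.

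*Ctnnb1* itself ranged from 25.9 to 28.0 FPKM in WT and from 25.04 to 25.4 FPKM in *β-cateninΔ(ex3)/+* livers, and values per gene cannot show the loss of 1 exon. The libraries of the groups differed in more than the labelled genotype. *Xist*, transcribed from the inactive X chromosome, had 20.3, 22.2 and 21.1 FPKM in WT livers and 0.0146, 0 and 0.0128 FPKM in *β-cateninΔ(ex3)/+* livers. The Y-linked genes *Eif2s3y* and *Ddx3y* had at most 0.0169 FPKM in WT livers and at least 5.83 FPKM in *β-cateninΔ(ex3)/+* livers, and *Uty* was listed at 0 in every WT liver. The sex of the mice is not given in the labels. All 10 genes of a list for the young liver, which are normally silenced or low in adults, were lower in *β-cateninΔ(ex3)/+* livers, and the list summed to 3929 to 3998 FPKM in WT and 6.41 to 7.35 FPKM in *β-cateninΔ(ex3)/+* livers although every mouse is labelled 8 weeks old. *Afp* had 607.6 ± 5.94 and 2.55 ± 0.226 FPKM in WT and *β-cateninΔ(ex3)/+* livers (SD, n = 3 each), *H19* had 2353 ± 28.6 and 0.0260 ± 0.0196 FPKM, and *Igf2* had 802.8 to 846.7 FPKM and was listed at 0 in every *β-cateninΔ(ex3)/+* liver. These differences run between all 3 livers of each group, so genotype, sex and whatever sets the young-liver genes cannot be told apart in any comparison here, and no value can be given without the libraries concerned.

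Markers of liver cell types also differed. Counts in these and the other marker lists are to be read against the shares over all genes tested. Of all genes tested 8.17% were higher and 4.52% lower past both thresholds, and 57% had adjusted p under 0.05. Of 7 hepatocyte markers with a row, 1 was higher and 2 were lower, and their sum was 69421 to 72709 FPKM in WT and 34495 to 34718 FPKM in *β-cateninΔ(ex3)/+* livers, carried by *Alb* (41434 and 24841 FPKM), *Ttr* and *Apoa1*. The marker that was higher was *Tat* (48.9 and 334.4 FPKM). *Asgr1* (302.6 and 288.4 FPKM) and *Fah* (264.1 and 258.2 FPKM) did not pass. Nor did *Apob* (27.1 and 79.1 FPKM), which had 148.8 FPKM in *β-cateninΔ(ex3)/+* replicate 1 and 45.4 and 43.3 FPKM in the others. *Ttr* fell by 1.41 and *Apoa1* by 2.01 on the log2 scale, while *Alb* did not reach a 2-fold change (log2 fold change -0.74), a value that quantile normalization sets to 0 because *Alb* is the highest gene in each liver. All 6 Kupffer cell markers had adjusted p under 0.05 and were higher, 4 of them past both thresholds; their sum was 155.6 to 160.3 FPKM in WT and 453.7 to 465.6 FPKM in *β-cateninΔ(ex3)/+* livers, and *Clec4f*, *Adgre1* and *Vsig4* had log2 fold changes of 1.68, 0.76 and 0.70. Cholangiocyte markers summed to 48.5 to 51.5 and 25.6 to 25.8 FPKM with 1 of 5 tested lower. That gene, *Spp1* (36.7 and 15.3 FPKM), carries most of the difference between the sums; *Krt19* had 2.51 and 1.94 FPKM and *Epcam* 1.29 and 0.421 FPKM, while *Krt7* (0.357 and 0.450 FPKM), *Sox9* (0.528 and 0.811 FPKM) and *Muc1* (0.325 and 0.587 FPKM) had higher means in *β-cateninΔ(ex3)/+* livers. Erythroid markers summed to 1778 to 2004 and 1002 to 1020 FPKM with 3 of 5 tested lower, among them *Hbb-bs* (log2 fold change -1.03) and *Alas2* (-1.02, and -0.98 without *β-cateninΔ(ex3)/+* replicate 2), while *Hba-a1* was at -0.83. Hepatocytes express the 10 bile acid genes, and in bulk liver fewer cells of a type and less RNA per cell cannot be told apart. The part of these marker lists in the results below was not tested.

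**Figure D1:**
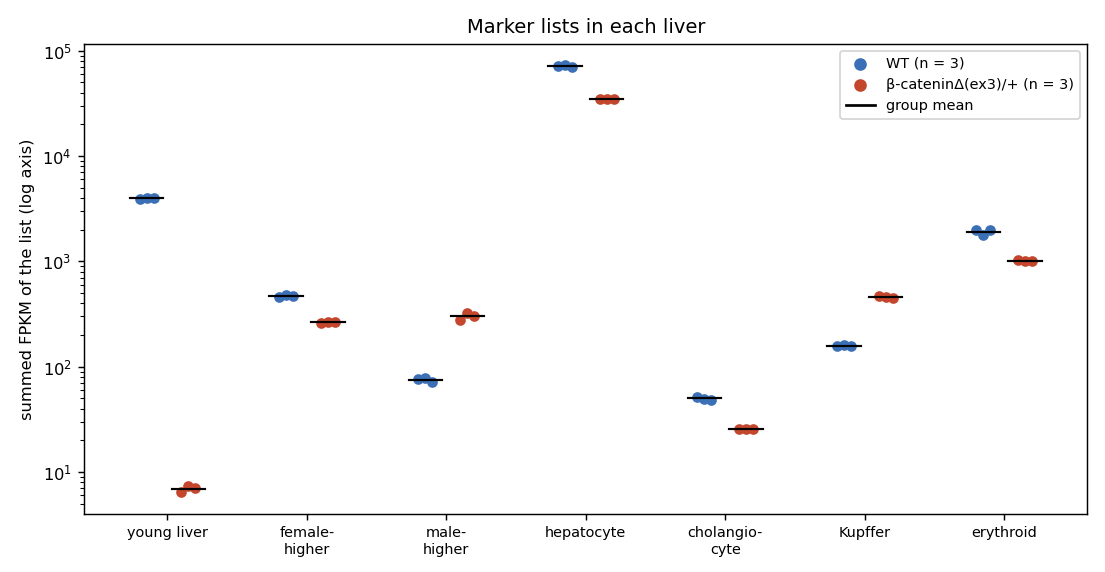
Summed FPKM of 7 marker lists in each liver on a log axis, with WT livers in blue, *β-cateninΔ(ex3)/+* livers in red and a black line at each group mean. In every list the 3 WT livers lie apart from the 3 *β-cateninΔ(ex3)/+* livers, and the young-liver list shows the widest gap, from at least 3929 FPKM in WT to at most 7.35 FPKM.

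The question put to each gene was whether its level differed between WT and *β-cateninΔ(ex3)/+* livers. The test was limma's on log2(FPKM + 1), fitted over all 13243 genes. The thresholds of the study's methods were used, an adjusted p under 0.05 together with a change of 2-fold or more. Of the 10 genes 6 passed both, against 12.7% of all genes tested; 5 were higher in *β-cateninΔ(ex3)/+* livers (8.17% of all genes) and 1 was lower (4.52%). All 10 had adjusted p under 0.05, 6 higher and 4 lower, against 57% of all genes, and in all 10 the values of the groups did not overlap, against 66%. The median absolute log2 fold change was 1.23 over the 10 genes and 0.35 over all genes tested. The median signed value was 0.79 over the 10 genes and 0.14 over all genes, so the level of the whole table lay slightly higher in *β-cateninΔ(ex3)/+* livers. Median-ratio scaling moved the median of all genes by -0.12 and quantile normalization by -0.16, and the genes called changed from 1082 higher and 598 lower to 868 and 734, and to 797 and 812. Each of the 10 genes kept its direction under both. With 3 livers against 3 the two-sided exact permutation test of a single gene cannot go below p = 0.1, and each of the 10 genes reached that value.

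**Figure D2:**
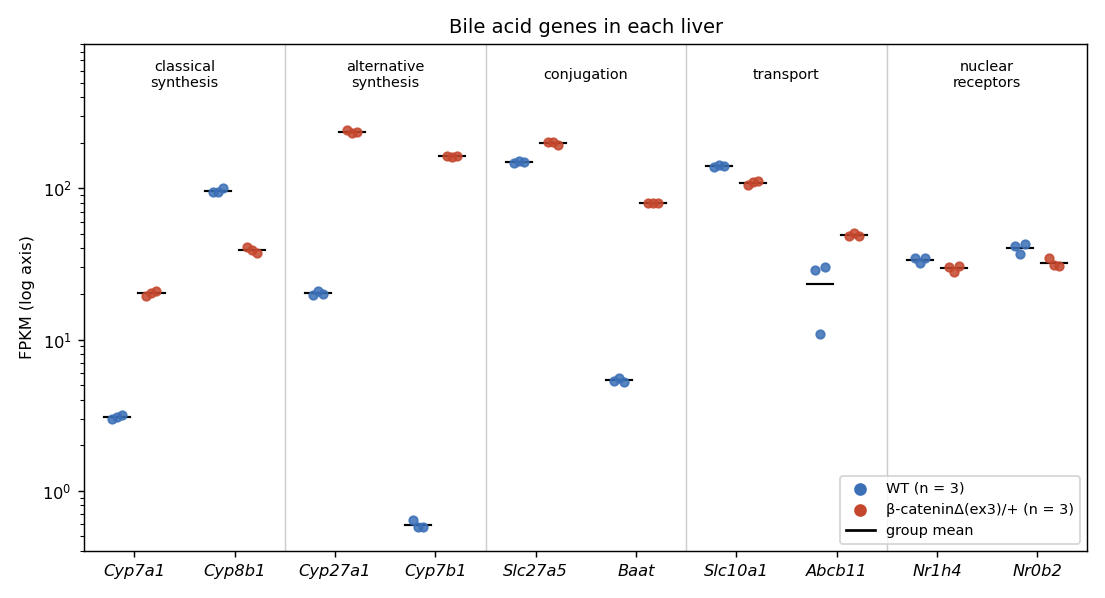
FPKM of the 10 bile acid genes in each liver on a log axis, grouped by role, with WT livers in blue, *β-cateninΔ(ex3)/+* livers in red and a black line at each group mean. *Cyp7b1* shows the widest gap, from below 0.65 FPKM in every WT liver to above 160 FPKM in every *β-cateninΔ(ex3)/+* liver, and the WT liver of replicate 2 stands alone for *Abcb11* at 10.8 FPKM.

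The enzymes particular to the classical route moved in opposite directions. *Cyp7a1* (ENSMUSG00000028240, chromosome 4 from 6265612 to 6275633, minus strand) measured 2.99, 3.05 and 3.15 FPKM in WT livers 1 to 3, against 19.3, 20.4 and 20.8 FPKM in *β-cateninΔ(ex3)/+* livers 1 to 3. Every *β-cateninΔ(ex3)/+* liver thus lay far above every WT liver. The means were 3.06 ± 0.0775 and 20.2 ± 0.755 FPKM (SD, n = 3 each), a 6.58-fold difference, with a log2 fold change of 2.38 (SE 0.048, with an adjusted p of 3.74e-07 in limma).

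*Cyp8b1* (ENSMUSG00000050445, chromosome 9 from 121914356 to 121916305, minus strand), the sterol 12α-hydroxylase, had 94.9, 94.8 and 100.2 FPKM in WT livers and 40.9, 38.8 and 37.4 FPKM in *β-cateninΔ(ex3)/+* livers. It is the 1 gene of the 10 that fell past both thresholds, and the lowest WT liver was above the highest *β-cateninΔ(ex3)/+* liver. Its mean went from 96.6 ± 3.12 FPKM to 39.02 ± 1.75 FPKM (SD, n = 3 each), 2.48-fold lower, with a log2 fold change of -1.29 (SE 0.046, with an adjusted p of 4.32e-06 in limma). *Cyp8b1* still had more FPKM than *Cyp7a1* in every liver. Together they summed to 97.8 to 103.4 FPKM in WT and 58.1 to 60.2 FPKM in *β-cateninΔ(ex3)/+* livers.

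Both enzymes of the alternative route were higher in *β-cateninΔ(ex3)/+* livers. *Cyp27a1* (ENSMUSG00000026170, chromosome 1 from 74713574 to 74737892, plus strand) had 19.7, 21.0 and 20.1 FPKM in WT livers and 242.9, 232.8 and 234.4 FPKM in *β-cateninΔ(ex3)/+* livers. The livers of each group lay close together beside a difference of 11.7-fold between the means, 20.3 ± 0.644 FPKM and 236.7 ± 5.46 FPKM (SD, n = 3 each). The log2 fold change was 3.48 (SE 0.038, with an adjusted p of 4.12e-08 in limma).

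*Cyp7b1* (ENSMUSG00000039519, chromosome 3 from 18071950 to 18243338, minus strand) was barely measured in WT livers, at 0.643, 0.573 and 0.574 FPKM. In *β-cateninΔ(ex3)/+* livers it had 163.6, 162.1 and 162.9 FPKM, the third highest level of the 10 genes there. The means were 0.597 ± 0.0403 FPKM and 162.9 ± 0.752 FPKM (SD, n = 3 each), a ratio of 273. On the log2(FPKM + 1) scale, which understates changes of genes with low FPKM, the log2 fold change was 6.68 (SE 0.040, with an adjusted p of 4.68e-09 in limma), rank 27 by absolute size among all genes tested. With a pseudocount of 0.1 it was 7.87. As background, *Cyp7b1* is expressed at a higher level in male than in female mouse liver, and the Y-linked genes above were detected at any appreciable level only in *β-cateninΔ(ex3)/+* livers. A list of genes higher in male liver had 5 of 6 tested past both thresholds and higher, beside 8.17% of all genes tested. *Cyp2d9* (27.7 and 58.5 FPKM) and *Hsd3b5* (0.929 and 3.12 FPKM) were among them. Both were under 2-fold after median-ratio scaling (0.88 and 0.98) and quantile normalization (0.77 and 0.97), and *Cyp2d9* also without WT replicate 3 or *β-cateninΔ(ex3)/+* replicate 2 (0.98 each). *Cyp4a12a*, *Cyp4a12b* and *Mup20* were listed at 0 in every WT liver; *Mup20* had 133 to 169 FPKM in *β-cateninΔ(ex3)/+* livers, *Cyp4a12a* 1.22 to 1.63 FPKM and *Cyp4a12b* at most 0.236 FPKM. The sum of that list was 71.6 to 78.8 FPKM in WT and 280.4 to 323.8 FPKM in *β-cateninΔ(ex3)/+* livers. How far the difference in *Cyp7b1* follows sex or genotype cannot be told apart here. The alternative route summed to 20.4 to 21.6 FPKM in WT and 394.9 to 406.6 FPKM in *β-cateninΔ(ex3)/+* livers.

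The genes of conjugation were both higher, but by very different amounts. *Slc27a5* (ENSMUSG00000030382, chromosome 7 from 12988346 to 12998192, minus strand), the ligase that forms bile acyl-CoA, had 147.5, 151.7 and 148.9 FPKM in WT livers and 203.7, 201.7 and 193.4 FPKM in *β-cateninΔ(ex3)/+* livers. It was the highest of the 10 genes in WT livers, and every *β-cateninΔ(ex3)/+* liver was higher still. The means of 149.4 ± 2.14 and 199.6 ± 5.46 FPKM (SD, n = 3 each) differed by less than 2-fold, with a log2 fold change of 0.42 (SE 0.032, with an adjusted p of 0.000109 in limma), or 0.24 and 0.23 under median-ratio scaling and quantile normalization. *Baat* (ENSMUSG00000039653, chromosome 4 from 49489422 to 49506557, minus strand), the acyltransferase of the next step, had 5.31, 5.57 and 5.22 FPKM in WT livers and 79.9, 79.96 and 80.2 FPKM in *β-cateninΔ(ex3)/+* livers. Its groups were far apart and each was narrow, with means of 5.36 ± 0.180 and 80.02 ± 0.130 FPKM (SD, n = 3 each), 14.9-fold higher in *β-cateninΔ(ex3)/+* livers. The log2 fold change was 3.67 (SE 0.039, with an adjusted p of 4.09e-08 in limma).

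Of the transporters, the uptake carrier was lower and the export pump higher in *β-cateninΔ(ex3)/+* livers. *Slc10a1* (ENSMUSG00000021135, chromosome 12 from 80953183 to 80968705, minus strand) had 138.2, 142.3 and 139.8 FPKM in WT livers and 105.2, 109.8 and 111.0 FPKM in *β-cateninΔ(ex3)/+* livers. The lowest WT liver was above the highest *β-cateninΔ(ex3)/+* liver, with means of 140.1 ± 2.07 and 108.7 ± 3.08 FPKM (SD, n = 3 each). The log2 fold change of -0.36 (SE 0.034, with an adjusted p of 0.000234 in limma) did not reach 2-fold; it was -0.54 and -0.59 after median-ratio scaling and quantile normalization.

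*Abcb11* (ENSMUSG00000027048, chromosome 2 from 69238282 to 69342614, minus strand) had 28.9, 10.8 and 30.3 FPKM in WT livers and 48.2, 50.4 and 48.5 FPKM in *β-cateninΔ(ex3)/+* livers. All WT livers were below all *β-cateninΔ(ex3)/+* livers, and WT replicate 2 was also far below the other WT livers. The means were 23.4 ± 10.9 FPKM and 49.01 ± 1.22 FPKM (SD, n = 3 each), with a coefficient of variation of 46.6% in WT against a median of 5.91% over 5071 genes with a mean of at least 5 FPKM. The log2 fold change was 1.17 (SE 0.38, with an adjusted p of 0.0396 in limma). Without WT replicate 2 the log2 fold change was 0.71, under 2-fold, with an adjusted p of 0.000171 in limma. The call was also lost without the filter on low values (adjusted p = 0.0727), after median-ratio scaling (0.997, adjusted p = 0.0659), after quantile normalization (0.90, adjusted p = 0.0845) and without any 1 of the *β-cateninΔ(ex3)/+* livers (adjusted p from 0.0900 to 0.0954). In WT replicate 2, 38 of 4714 genes (0.806%) fell below 0.5 times the level of both other WT livers; the other libraries had 0.467% to 0.769% such genes, and *Abcb11* was the 1 bile acid gene among them.

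The nuclear receptors were slightly lower in *β-cateninΔ(ex3)/+* livers. *Nr1h4* (ENSMUSG00000047638, chromosome 10 from 89454234 to 89506658, minus strand) had 34.8, 31.9 and 34.4 FPKM in WT livers and 30.1, 28.0 and 30.6 FPKM in *β-cateninΔ(ex3)/+* livers. The groups did not overlap, but the gap between the nearest livers was small beside the spread within each group. The log2 fold change was -0.18 (SE 0.055, with an adjusted p of 0.0293 in limma), and without WT replicate 1 the adjusted p was 0.0893, without WT replicate 3 0.0873, and without *β-cateninΔ(ex3)/+* replicate 1 or 2 0.0569 or 0.0790. The difference was larger after median-ratio scaling (-0.35, with an adjusted p of 0.00166 in limma) and quantile normalization (-0.46, with an adjusted p of 0.000681). *Nr0b2* (ENSMUSG00000037583, chromosome 4 from 133553376 to 133556536, plus strand) had 41.5, 36.5 and 42.7 FPKM in WT livers and 34.3, 30.9 and 30.7 FPKM in *β-cateninΔ(ex3)/+* livers. Its WT replicate 2 and *β-cateninΔ(ex3)/+* replicate 1 came close to each other. The log2 fold change was -0.32 (SE 0.076, with an adjusted p of 0.0127 in limma). Under the same scalings it was -0.49 and -0.59. Neither receptor reached a 2-fold change under any alternative. Of the targets of FXR or SHP given above, *Cyp7a1* was higher and *Cyp8b1* lower past both thresholds. *Abcb11* was higher, with a call that several alternatives lost. Activity of the receptors was not measured, and their part in these differences was not tested.

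**Figure D3:**
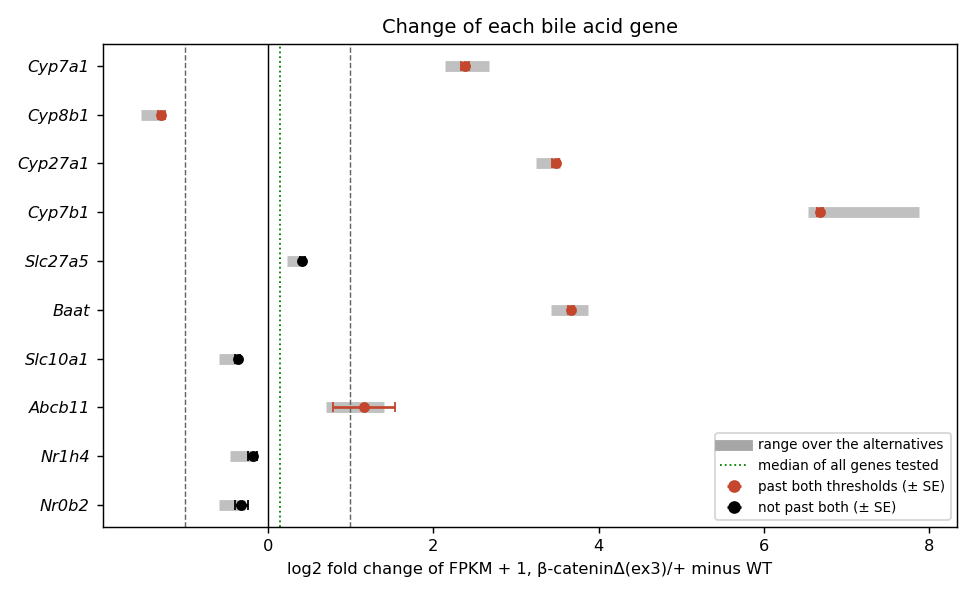
Log2 fold change of each bile acid gene on the log2(FPKM + 1) scale with its standard error, as a red point where past both thresholds and black otherwise; grey bars span the alternatives, dashed lines mark 2-fold and the dotted line marks the median of all genes tested, 0.14. The grey bar of *Abcb11* runs from 0.71 to 1.41 and crosses the 2-fold line, and no gene's bar crosses 0.

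The order of the levels changed between the groups. In WT livers *Slc27a5* (149.4 FPKM, 29.1% of the sum over the 10 genes) was highest, followed by *Slc10a1* (27.3%), *Cyp8b1* (18.8%), *Nr0b2* (7.85%), *Nr1h4* (6.57%), *Abcb11* (4.55%), *Cyp27a1* (3.96%), *Baat* (1.05%), *Cyp7a1* (0.598%) and *Cyp7b1* (0.116%). Only the neighbours *Abcb11* and *Cyp27a1* overlapped between livers. In *β-cateninΔ(ex3)/+* livers *Cyp27a1* (236.7 FPKM, 24.7%) led, followed by *Slc27a5* (20.8%), *Cyp7b1* (17.01%), *Slc10a1* (11.3%), *Baat* (8.36%), *Abcb11* (5.12%), *Cyp8b1* (4.07%), *Nr0b2* (3.34%), *Nr1h4* (3.08%) and *Cyp7a1* (2.11%), and no neighbours overlapped. *Cyp7b1* thus went from the lowest place to the third, and *Cyp7a1*, although higher, was the lowest in *β-cateninΔ(ex3)/+* livers. The 10 genes together summed to 498.2 to 525.4 FPKM in WT and 949.7 to 968.1 FPKM in *β-cateninΔ(ex3)/+* livers.

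A ratio of 2 genes within a liver does not depend on a scaling factor shared by all genes of a library. Quantile normalization, which moves genes by different amounts, was not applied to the ratios. *Cyp8b1* over *Cyp7a1*, the 12α-hydroxylase relative to the first enzyme of the classical route, was 31.7, 31.0 and 31.9 in WT livers and 2.11, 1.902 and 1.80 in *β-cateninΔ(ex3)/+* livers, a log2 difference of -4.03. *Cyp7a1* over *Cyp7b1*, which sets the 7α-hydroxylases of the routes side by side, was 4.65, 5.33 and 5.48 in WT livers and 0.118, 0.126 and 0.128 in *β-cateninΔ(ex3)/+* livers, so that the enzyme with the higher level changed. *Slc27a5* over *Baat* was 27.8, 27.3 and 28.5 in WT livers and 2.55, 2.52 and 2.41 in *β-cateninΔ(ex3)/+* livers. The levels of the conjugation enzymes thus lay much nearer to each other in *β-cateninΔ(ex3)/+* livers. *Cyp27a1* over *Cyp7a1* was 6.60, 6.88 and 6.40 in WT livers and 12.6, 11.4 and 11.3 in *β-cateninΔ(ex3)/+* livers, a smaller shift. *Abcb11* over *Slc10a1*, export over uptake, was 0.209, 0.0759 and 0.217 in WT livers and 0.458, 0.459 and 0.437 in *β-cateninΔ(ex3)/+* livers, a log2 difference of 1.58, or 1.08 without WT replicate 2. *Nr0b2* over *Nr1h4* was 1.19, 1.15 and 1.24 in WT livers and 1.14, 1.10 and 1.01 in *β-cateninΔ(ex3)/+* livers, the least change of the 6 ratios, with the nearest livers close to touching. None of the ratios overlapped between groups. Single genes did not overlap in 66% of all genes tested, and the share over other pairs of genes was not computed. Each ratio had p = 0.1 in the two-sided exact permutation test, the smallest possible, and 0.1 after adjustment over the 6 ratios.

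**Figure D4:**
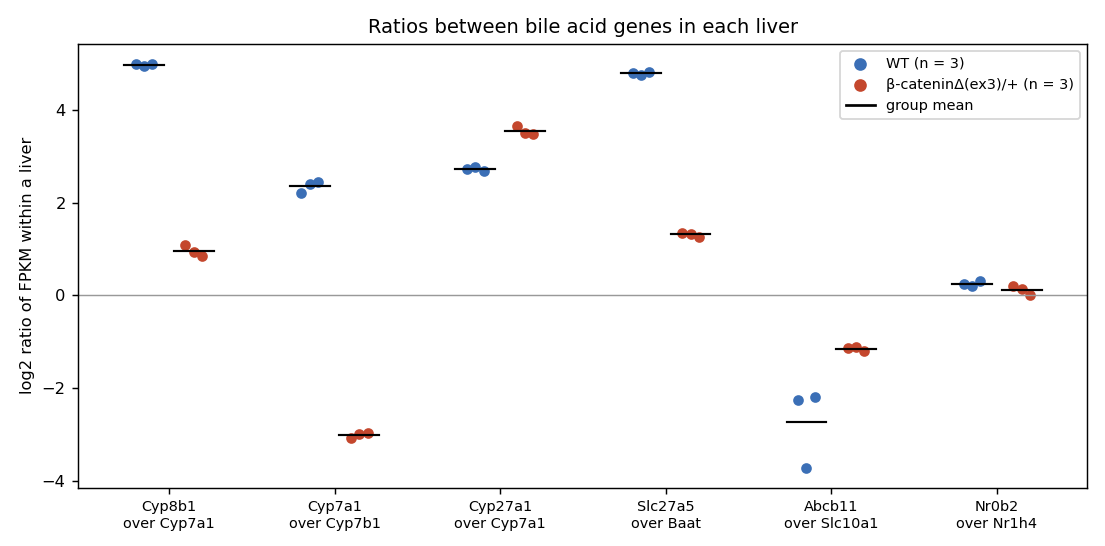
Log2 ratio of the FPKM of 2 bile acid genes within each liver, for 6 ratios, with WT livers in blue, *β-cateninΔ(ex3)/+* livers in red and a black line at each group mean. *Cyp7a1* over *Cyp7b1* crosses 0, from a mean of 2.36 in WT to -3.01 in *β-cateninΔ(ex3)/+* livers, and *Nr0b2* over *Nr1h4* moves least, from 0.25 to 0.11.

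The other genes of the pathway were taken as lists by role, 52 genes of which 48 were tested. Of these 6 were higher and 7 lower past both thresholds, beside 8.17% and 4.52% of all genes tested. By adjusted p alone 21 were higher and 17 lower, beside 57% of all genes in either direction, and the median log2 fold change was 0.07. The counts of the lists that follow are small and are to be read against the same shares. In the list of further synthesis enzymes 1 of 12 tested rose and 2 fell. *Cyp2c70*, which makes the muricholic acids of mice, rose from 131.2 ± 3.67 to 333.2 ± 5.30 FPKM (SD, n = 3 each; log2 fold change 1.34, limma adjusted p = 7.74e-07). *Slc27a2*, a very long chain acyl-CoA synthetase that also activates bile acid precursors, fell from 314.9 ± 2.14 to 124.3 ± 1.11 FPKM (-1.33, limma adjusted p = 2.76e-07). *Cyp39a1*, the 24-hydroxycholesterol 7α-hydroxylase, fell from 12.1 ± 1.001 to 3.98 ± 0.206 FPKM (-1.40, limma adjusted p = 1.81e-05). It therefore moved against the other oxysterol 7α-hydroxylase, *Cyp7b1*. *Scp2*, the peroxisomal thiolase of side chain shortening and the highest gene of the list in WT livers, had 427.0 and 355.9 FPKM and did not pass (limma adjusted p = 0.102). *Akr1c6*, an aldo-keto reductase, had 275.4 and 361.0 FPKM and was the highest in *β-cateninΔ(ex3)/+* livers. It and the other 7 genes tested had log2 fold changes within 2-fold, and *Ch25h* and *Cyp46a1*, hydroxylases of the side chain, were below 0.5 FPKM in every liver.

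Among 5 genes of uptake 2 rose. *Slco1a1*, an organic anion transporter of the basolateral membrane, had 0.0988, 0.0824 and 0.230 FPKM in WT livers and 21.0, 21.0 and 21.8 FPKM in *β-cateninΔ(ex3)/+* livers (log2 fold change 4.29, limma adjusted p = 1.38e-07). As with *Cyp7b1*, its level is known to be higher in male than in female mouse liver. *Slco2b1*, of the same family, had 0.733, 1.03 and 0.759 FPKM in WT livers and 25.4, 24.8 and 25.9 FPKM in *β-cateninΔ(ex3)/+* livers (3.84, limma adjusted p = 3.12e-07). The most abundant uptake gene in *β-cateninΔ(ex3)/+* livers was *Slco1b2*, a carrier of unconjugated bile acids, with 69.6 ± 2.11 against 130.02 ± 2.37 FPKM in *β-cateninΔ(ex3)/+* livers (SD, n = 3 each), just under 2-fold (0.89, limma adjusted p = 6.55e-06). These carriers were thus higher in *β-cateninΔ(ex3)/+* livers while *Slc10a1* was lower. *Slco1a4* and *Ephx1* did not pass.

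Among 7 genes of canalicular export 2 fell, the partners of the sterol exporter. *Abcg5* fell from 43.7 ± 1.24 to 14.0 ± 0.627 FPKM (SD, n = 3 each; log2 fold change -1.57, limma adjusted p = 2.04e-06) and *Abcg8* from 17.6 ± 0.706 to 5.87 ± 0.252 FPKM (-1.43, limma adjusted p = 4.62e-06). Both carry cholesterol into bile. The other 5, among them the phospholipid flippase *Abcb4*, had log2 fold changes between -0.24 and 0.25. In the list of basolateral export *Abcc3*, which pumps conjugates back to blood, rose from 4.398 ± 0.234 to 23.7 ± 1.197 FPKM (2.19, limma adjusted p = 1.20e-06); *Slc51b*, a subunit of the basolateral bile acid carrier, went from 3.01 ± 0.410 to 1.17 ± 0.126 FPKM, 2.58-fold lower by the means but under 2-fold on the log2(FPKM + 1) scale on which calls were made (-0.89, with an adjusted p of 0.000444 in limma). *Abcc4* did not reach 2-fold and *Slc51a*, the partner of *Slc51b*, was not tested.

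Of 15 regulators tested 2 rose. *Hnf4a*, a hepatocyte nuclear receptor and the highest of the list, had 57.6 ± 0.953 and 125.0 ± 1.07 FPKM (SD, n = 3 each; log2 fold change 1.10, limma adjusted p = 1.24e-06). *Nr1h3*, the oxysterol receptor LXRα, which induces *Abcg5* and *Abcg8*, had 17.6 ± 0.520 and 40.1 ± 3.39 FPKM (1.14, limma adjusted p = 3.31e-05). Both were under 2-fold after median-ratio scaling (0.93 and 0.97) and quantile normalization (0.86 and 0.87). *Fgfr4* and *Klb*, which form the hepatic receptor of the intestinal hormone FGF15, had log2 fold changes of 0.65 and -0.50. The other regulators tested lay between -0.79 (*Ppara*) and 0.80 (*Rxra*), and *Gpbar1*, the membrane bile acid receptor, had at most 0.258 FPKM in WT livers and was listed at 0 in every *β-cateninΔ(ex3)/+* liver.

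Of 6 genes of bile acid detoxification 3 fell past both thresholds. *Sult2a1*, a bile acid sulfotransferase, had 263.3, 292.1 and 265.0 FPKM in WT livers and 0.150, 0.292 and 0 FPKM in *β-cateninΔ(ex3)/+* livers (log2 fold change -7.91, limma adjusted p = 6.81e-08), and *Sult2a2* had 314.0, 320.8 and 310.5 FPKM and 0.305, 0.818 and 0.978 FPKM (-7.56, limma adjusted p = 3.82e-07). Their sequences are nearly the same, so how fragments were split between them is uncertain. These genes are known to be higher in female than in male mouse liver. A list of genes higher in female liver had 6 of 9 tested lower and 2 higher past both thresholds. These counts stand beside 4.52% and 8.17% of all genes tested. The list summed to 455.5 to 484.3 FPKM in WT and 261.4 to 267.3 FPKM in *β-cateninΔ(ex3)/+* livers. *Cyp4a14* (233.4 and 3.28 FPKM) alone fell by more than the sum did. *Cyp2b13* (21.6 and 1.78 FPKM) and *Cyp2b9* (113.7 and 47.7 FPKM) of the list were also lower. *Cyp3a41a* had 26.4 and 28.2 FPKM and did not pass, with a sign that turned under both scalings. *Sult3a1* was listed at 0 in every WT liver and had 140.8 to 143.2 FPKM in *β-cateninΔ(ex3)/+* livers. The other gene of the list that rose was *Cyp17a1* (0.0725 and 18.3 FPKM). *Ugt1a1*, a glucuronosyltransferase that shares exons with other *Ugt1a* genes, had 280.6, 266.7 and 263.0 FPKM in WT livers and 71.6, 219.1 and 75.9 FPKM in *β-cateninΔ(ex3)/+* livers. One *β-cateninΔ(ex3)/+* liver thus stood near WT, and the call (-1.34, limma adjusted p = 0.0377) was lost without the filter on low values (adjusted p = 0.0699) and without any 1 WT liver or *β-cateninΔ(ex3)/+* replicate 1 or 3 (adjusted p from 0.0846 to 0.108). Without *β-cateninΔ(ex3)/+* replicate 2 the log2 fold change was -1.86. *Cyp3a11*, which hydroxylates bile acids, had 187.9 and 219.9 FPKM (0.23, limma adjusted p = 0.000812). *Cyp2b10*, a target of the receptor CAR, went from 2.80 ± 0.463 to 1.07 ± 0.0378 FPKM (SD, n = 3 each), 2.62-fold lower by the means, against 2.21-fold for *Ugt1a1*, but under 2-fold on the log2(FPKM + 1) scale (-0.87, with an adjusted p of 0.000611 in limma). *Sult2a8* had 65.1 ± 2.40 and 58.3 ± 24.3 FPKM and did not pass (limma adjusted p = 0.544).

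**Figure D5:**
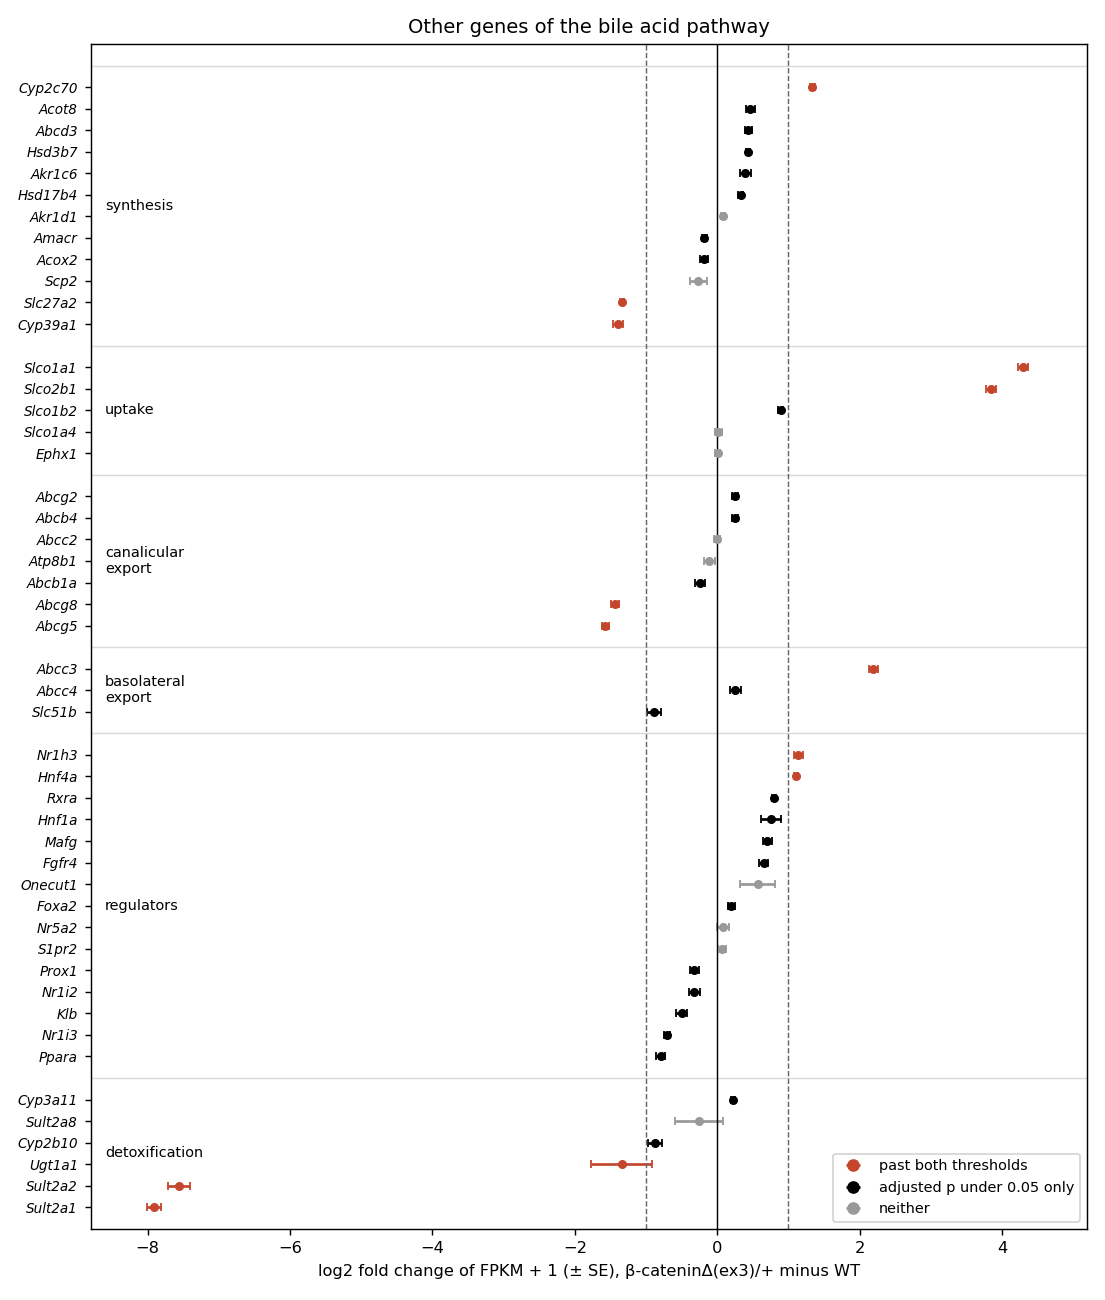
Log2 fold change with standard error, on the log2(FPKM + 1) scale, of the 48 other pathway genes tested, in 6 lists by role; red points passed both thresholds, black points had adjusted p under 0.05 only and grey points neither, and dashed lines mark 2-fold. *Sult2a1* and *Sult2a2* lie farthest to the left, at -7.91 and -7.56, and *Slco1a1* and *Slco2b1* farthest to the right, at 4.29 and 3.84.

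Position along the liver lobule was read from marker lists, because enzymes of bile acid synthesis are known to be unevenly placed between the portal and the central vein. Of 12 pericentral and Wnt target genes 8 were higher past both thresholds, beside 8.17% of all genes tested. Among them were *Glul* (103.2 and 625.9 FPKM), *Oat* (15.7 and 608.5 FPKM) and *Axin2* (1.11 and 6.57 FPKM). Of 10 periportal genes 3 were higher and 3 lower past both thresholds, beside 8.17% and 4.52% of all genes tested. The first 3 of the list, *Cyp2f2* (13.2 and 171.0 FPKM), *Hal* (10.3 and 39.7 FPKM) and *Sds* (18.2 and 83.8 FPKM), were the ones that rose past both. *Pck1* (560.3 and 205.03 FPKM), *Aldh1b1* (52.3 and 18.6 FPKM) and *Cdh1* (12.5 and 5.73 FPKM) were the periportal genes that fell past both. *Cdh1* only just did so (log2 fold change -1.001). By adjusted p alone 5 periportal genes were higher and 4 lower, beside 57% of all genes in either direction. These counts include *Cps1* (89.0 and 177.0 FPKM) and *Arg1* (142.2 and 210.5 FPKM), which were higher. They also include *Hsd17b13* (218.7 and 115.0 FPKM), which was lower. Of the pericentral list *Cyp2e1* was lower, by less than 2-fold (log2 fold change -0.23, with an adjusted p of 0.0112 in limma). The position of the cells that expressed the bile acid genes was not measured.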

How the data were processed

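RNA-seq of 3 WT and 3 *β-cateninΔ(ex3)/+* livers was analysed, 1 library per liver, grouped by the genotype in the labels. The authors deposited 1 FPKM value for each gene in each liver. The submitters' processing notes name cutadapt 1.9, HISAT2 2.0.4, StringTie 1.3.4d, DESeq2 and edgeR, with no role or order; the genome build is not given in the sources used here. Coordinates are those of the table and match GENCODE M21 in start and end for 8 of the 10 genes. Poly(A) RNA was read with a strand-marking kit, and whether strand was used in counting is not given; genes overlapping *Cyp7b1* and *Abcb11* had at most 0.236 and 0.0808 FPKM. No 2 libraries of a group shared a value above 1 FPKM (0 identical values), and 0 columns were left unused.

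Where FPKM averaged 0.5 or more, genes were fitted as log2(FPKM + 1) in R 4.3.3 with limma 3.58.1 (lmFit and trended eBayes), with Benjamini-Hochberg adjustment; calls needed an adjusted p under 0.05 and a fold change of at least 2. The fit was tested on simulated data. The count test of the authors was not run because FPKM keep no counts. Nothing says that the mice were litter mates or batched. The p-values of limma set each difference against the spread between these livers, moderated over all genes. In *β-cateninΔ(ex3)/+* livers the coefficient of variation ran from 0.163% (*Baat*) to 6.39% (*Nr0b2*) over the 10 genes. The median there was 5.04% over 5071 genes with a mean of at least 5 FPKM. Whether the libraries carry the full spread between separate mice was not tested. Promoter windows were matched by symbol. Other steps ran in Python 3.11.15 with scipy 1.17.1, numpy 2.4.6, pandas 2.3.3 and matplotlib 3.10.9. The genes and lists were chosen with earlier results of these data known. Named are the 10 genes, pathway genes past both thresholds with the highest of each list, the first 3 genes of each marker list and those listed at 0 in 1 group only. *Rxra*, *Ppara*, *Fgfr4*, *Klb*, *Abcb4*, *Abcc4*, *Slc51a*, *Slc51b*, *Slco1a4*, *Ephx1*, *Ch25h*, *Cyp46a1*, *Gpbar1*, *Tat*, *Asgr1*, *Fah*, *Apob*, *Krt7*, *Sox9*, *Spp1*, *Muc1*, *Pck1*, *Aldh1b1*, *Cdh1*, *Hsd17b13*, *Cps1*, *Arg1*, *Cyp2e1*, *Cyp4a14*, *Cyp17a1*, *Cyp2b10* and *Sult2a8* were added after their values were seen. *Ctnnb1* was named as the targeted gene. *Tf* of the hepatocyte list was not analysed here. Alternatives were a pseudocount of 0.1, no filter, a higher filter (mean FPKM of 1), median-ratio and quantile scaling, untrended eBayes, a replicate block, omission of each liver, and adjusted p at any fold change.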

Additional observations from a re-analysis of the deposited data

How the results depend on the processing

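Of 130 comparisons of the 10 bile acid genes with an alternative, 123 kept direction and side of the thresholds and 7, all of *Abcb11*, lost the call. Of 634 for *Ctnnb1* and the other tested genes named by the rule above, 613 kept both, 17 lost and 2 gained a call. *Alb* under quantile normalization, which sets its change to 0, is counted among those that kept both. Genes added after their values were seen were not compared with the alternatives. Among these is *Cdh1*, whose change lay close to 2-fold. The change of filter, untrended eBayes and the replicate block leave a log2 fold change as it was, so direction could not turn there. *Cyp3a41a* reversed, from 0.09 to -0.076 (median-ratio scaling) or to -0.20 (quantile normalization); the cause was not tested. By adjusted p at any fold change 10 bile acid genes and 38 other pathway genes passed, in place of 6 and 13; apart from this, the counts were 5 or 6 and 11 to 15. Leaving out each liver in turn gave 5 to 6 and 12 to 13, with ratio *Abcb11* over *Slc10a1* from 1.08 to 1.84. With 1 added to both FPKM, which weighs on low values, the log2 difference was -3.67 for *Cyp8b1* over *Cyp7a1*, -4.30 for *Cyp7a1* over *Cyp7b1* (-5.38 without), 1.10 for *Cyp27a1* over *Cyp7a1* (0.83 without) and -3.25 for *Slc27a5* over *Baat*. The pseudocount of 0.1 raised the genes called among all tested from 1680 to 2705. Deviations of same-numbered livers correlated between -0.0054 and 0.0268, so the numbers were not taken as pairs. With them as a replicate block 6 bile acid genes, 13 other pathway genes and 1673 genes in all were called. Paired ratio differences equal the unpaired ones by arithmetic and are no check. FPKM give no counts, so no counting error can be set beside low values such as those of *Cyp7b1* in WT livers.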

Other observations

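Of 3 genes of bile acid handling in the intestine, *Fgf15* and *Fabp6* were listed at 0 in all 6 livers. *Slc10a2*, which encodes the apical sodium-dependent bile acid transporter of ileum and bile duct cells, had 0.00976, 0 and 0.00985 FPKM in WT livers and 6.62, 6.15 and 6.24 FPKM in *β-cateninΔ(ex3)/+* livers. On the log2 scale it rose by 2.87 (SE 0.055, with an adjusted p of 2.96e-07 in limma) and 2.75 to 5.92 over the alternatives, and the groups did not overlap. The cholangiocyte markers did not move one way, as given above, and the cells that hold this RNA were not identified. The difference runs between the same livers that differ in sex-linked and young-liver genes, and these cannot be told apart.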
